A study of Mus musculus with 2 samples.

Results

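Progression of germ cells through the meiotic divisions depends on cyclins and their kinase partners, and 10 of these genes were followed in testis RNA of adolescent mice exposed to bisphenol A (BPA), a building block of polycarbonate plastic that can bind estrogen receptors. They were chosen by name, 10 of the 44002 rows of the deposited table, and all 10 had a row under their gene ID. Both groups were BALB/c mice at postnatal day 45. By label, 1 group had BPA exposure. The other has no treatment label and was taken as the control from its title. The labels name no other difference. The sources used here give no dose, route or duration. Whole testis was used, with 1 sequencing library per group. Each library holds the mixed material of 3 samples and is called a pool here, so no spread between animals was measured and no test between the conditions was made. The listed values stand for 45162887 reads in the BPA pool, against 41711330 reads in the control pool.

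A cyclin activates a cyclin-dependent kinase (CDK) and is destroyed when its phase of the cycle ends. In male meiosis, spermatocytes spend a long prophase with CDK2 bound at telomeres and recombination sites, and then enter the divisions when CDK1 with a B-type cyclin is switched on by CDC25 phosphatases. Mammals have a pair of A-type cyclins, cyclin A2 of dividing cells in general and cyclin A1 of germ cells. Mice that lack cyclin A1 have males whose spermatocytes arrest before the first division. Cyclin B3 is a meiotic cyclin of early prophase, needed in mice for the first division of the oocyte. The set is described here as germ cell cyclins (Ccna1 and Ccnb3), somatic-type cyclins that dividing cells use in general (Ccna2, Ccnb1, Ccnb2, Ccne1 and Ccne2), and the enzymes (Cdk1, Cdk2 and Cdc25c). In bulk tissue these names do not say which cells gave the RNA, and fewer cells of a type cannot be told apart from less RNA per cell.

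Bases before the annotated start of Ccna1, Ccnb3, Ccnb2, Ccnb1 and Cdk1 are shown: the first 4 are the highest and the lowest cyclins by level per length, and Cdk1 encodes the kinase that the B cyclins bind. Capitals mark CCAAT, the box that the factor NF-Y binds, and TTTGAA, the core of the cell cycle homology region of G2/M promoters, on either strand. The sequences are RefSeq's on GRCm38.p6, read 5′ to 3′ toward the start. Each window runs 250 bases up to the start, and bases of a window that fall in annotated exons of longer transcripts or other genes, or in the edge of the gene's own RefSeq span, are left out. This shortens Ccna1, Ccnb3, Ccnb1 and Cdk1. The Ccna1 start lies inside the gene's span, downstream of its 5′ end.
Ccna1, chr3:55055056-55055241, minus strand: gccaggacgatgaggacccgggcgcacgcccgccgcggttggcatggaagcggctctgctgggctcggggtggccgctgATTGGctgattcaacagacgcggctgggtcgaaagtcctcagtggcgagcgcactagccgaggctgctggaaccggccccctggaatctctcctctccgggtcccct
Ccnb3, chrX:7041636-7041869, minus strand: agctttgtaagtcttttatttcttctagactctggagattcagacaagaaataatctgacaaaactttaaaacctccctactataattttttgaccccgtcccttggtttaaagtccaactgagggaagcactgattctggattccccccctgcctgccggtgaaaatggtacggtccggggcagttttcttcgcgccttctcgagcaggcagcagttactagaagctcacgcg
Ccnb2, chr9:70421555-70421804, minus strand: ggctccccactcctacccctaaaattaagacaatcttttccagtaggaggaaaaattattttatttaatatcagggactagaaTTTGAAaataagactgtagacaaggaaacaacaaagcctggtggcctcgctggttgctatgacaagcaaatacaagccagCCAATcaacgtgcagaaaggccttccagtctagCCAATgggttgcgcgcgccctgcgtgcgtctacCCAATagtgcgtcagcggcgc
Ccnb1, chr13:100786571-100786736, minus strand: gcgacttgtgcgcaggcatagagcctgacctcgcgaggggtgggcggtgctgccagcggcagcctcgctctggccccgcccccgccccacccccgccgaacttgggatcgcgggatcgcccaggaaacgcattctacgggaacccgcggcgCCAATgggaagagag
Cdk1, chr10:69352939-69353162, minus strand: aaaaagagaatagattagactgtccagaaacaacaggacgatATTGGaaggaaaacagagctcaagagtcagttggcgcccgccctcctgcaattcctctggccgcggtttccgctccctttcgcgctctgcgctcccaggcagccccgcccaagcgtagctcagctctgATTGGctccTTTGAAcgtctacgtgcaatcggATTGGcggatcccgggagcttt
Counted over the full windows, there were 3 CCAAT boxes before Ccnb2 and before Cdk1, 2 before Ccnb1, 1 before Ccna1 and 0 before Ccnb3. TTTGAA was found 2 times before Cdk1, 1 time before Ccnb2, and not before Ccna1, Ccnb3 or Ccnb1. Of 7 members counted, which adds Ccne1 (no match) and Cdk2 (1 CCAAT), 5 held CCAAT and 3 held 2 or more, and 2 held TTTGAA. Cdc25c was left out of this count by choice, and no start region was at hand for Ccna2 and Ccne2. Among 32851 RefSeq start regions of the same length, 33.8% held CCAAT, 10.1% held 2 or more and 15.99% held TTTGAA. A core that MYB factors bind, AACNG, stood in 5 of the 7 members and in 74.2% of all start regions, and is not in capitals. The motifs marked in capitals share no base in any member, and the MYB core overlaps a cell cycle homology core before Cdk1. The matches describe these letters and not binding.

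Ccnb2 and Ccna1 had the highest levels per length of the 10 genes, and Ccnb3 was close to absent. Levels between genes are compared only as CPM (reads scaled to a common library size) per kb of merged exons, with exact 95% Poisson intervals of the reads. On this scale Ccnb2, a partner of CDK1 that mice can do without, stood at 121 CPM per kb in the BPA pool (119 to 124), against 130 CPM per kb in the control pool (127 to 133). Ccna1 followed at 53.5 CPM per kb in the BPA pool, against 59.0 CPM per kb in the control pool. Ccnb1, the essential B cyclin of mitotic entry, had 18.6 CPM per kb in the BPA pool, against 19.4 CPM per kb in the control pool. Among genes at 1 CPM or more in either library with a length, 96.8% lay below the Ccnb2 level in the BPA pool, against 97.1% in the control pool, and for Ccna1 these shares were 92.1% with BPA and 92.7% in the control.

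The enzymes came next. Cdk2 stood at 12.8 CPM per kb in the BPA pool, against 11.4 CPM per kb in the control pool, and Cdk1 below it at 5.74 CPM per kb in the BPA pool, against 6.13 CPM per kb in the control pool. Cdc25c, 1 of the CDC25 phosphatases that remove the inhibitory phosphates of CDK1, stood at 2.77 CPM per kb in the BPA pool, against 3.22 CPM per kb in the control pool. The cyclins of DNA replication were lower still. Ccne2 had 2.52 CPM per kb with BPA and 2.32 in the control, Ccne1 had 1.93 with BPA and 1.71 in the control, and Ccna2 had 1.52 with BPA and 1.48 in the control. The order of the 10 genes was identical in both pools. Intervals of Ccne1 and Ccna2, neighbours in that order, overlapped in each pool, and those of Cdc25c and Ccne2 overlapped in the BPA pool only. With the length of the longest transcript in place of merged exons all 10 genes kept their places in both pools. The levels themselves moved with the length used. On that scale Ccnb1 had 31.5 CPM per kb with BPA and 32.9 in the control, and Cdk2 had 24.4 with BPA and 21.7 in the control. Shares and multiples per kb given below rest on merged exons, and the intervals do not cover the choice of length.

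**Figure D1:**
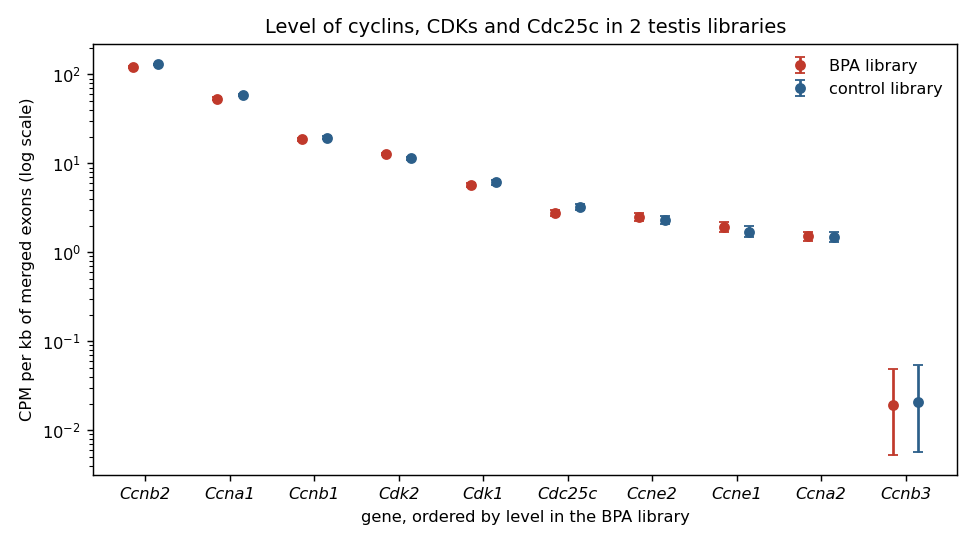
Level of each of the 10 genes in CPM per kb of merged exons on a log axis, in the BPA pool (left point of each pair), against the control pool (right point), with exact 95% Poisson intervals of the reads. Ccnb2 and Ccna1 lead and Ccnb3 lies at 0.0193 CPM per kb in the BPA pool, against 0.0210 CPM per kb in the control pool, while both pools give the same order.

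The germ cell cyclins lay at opposite ends of this order. Ccna1 (gene ID 12427, chromosome 3 from 55045469 to 55057634 on GRCm38) had 98.2 CPM in the BPA pool, from 4456 reads, against 108.2 CPM in the control pool, from 4525 reads. The BPA pool was thus at 0.907 of the control level (95% counting interval 0.870 to 0.946). Ccnb3 (209091, chromosome X from 6979652 to 7041635) was listed at 0 in both pools, because the authors' table writes values under 1 CPM as 0. The authors' deposited table gives Ccnb3 a log2 fold change of -0.12 and a p-value of 0.9864, and these values correspond to 4 reads in each pool, or 0.0881 CPM in the BPA pool, against 0.0957 CPM in the control pool. The ratio of these, 0.921, has a counting interval of 0.172 to 4.95, so a change of several fold either way was not detectable for Ccnb3 at this depth. Per kb, Ccna1 made up 26.8% of the summed level of the 7 cyclins with BPA and 27.6% in the control, and Ccnb3 made up 0.00968% with BPA and 0.00981% in the control.

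Among the somatic-type cyclins the B cyclins were abundant and the A and E cyclins were not. Ccnb2 (12442, chromosome 9 from 70407689 to 70421554) had 185.7 CPM in the BPA pool, from 8426 reads, against 198.6 CPM in the control pool, from 8301 reads, a ratio of 0.935 (0.907 to 0.964). Per kb, Ccnb2 made up 60.8% of the summed level of the 7 cyclins in the BPA pool, against 60.7% in the control pool, and Ccnb1 made up 9.33% with BPA and 9.09% in the control. Ccnb1 (268697, chromosome 13 from 100778739 to 100786486) had 78.5 CPM in the BPA pool, against 81.9 CPM in the control pool, a ratio of 0.958 (0.914 to 1.004). Of the 50-base words of Ccnb1 transcripts, 23.4% also occur at other loci, such as Ccnb1-ps, so the source of part of its reads is uncertain. Ccnb1-ps itself had 26 reads in the BPA pool, against 44 reads in the control pool. Its BPA value was listed at 0, and the 26 reads were derived from the deposited fold change.

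The replication cyclins had similar CPM on both sides. Ccna2 (12428, chromosome 3 from 36564865 to 36573038), which drives S phase and mitotic entry, had 6.19 CPM in the BPA pool, against 6.05 CPM in the control pool, a ratio of 1.02 (0.860 to 1.22). Ccne1 (12447, chromosome 7 from 38097984 to 38107490) had 5.13 CPM in the BPA pool, against 4.55 CPM in the control pool, a ratio of 1.13 (0.929 to 1.38). Ccne2 (12448, chromosome 4 from 11190433 to 11204779), the E cyclin whose loss impairs male fertility in mice, had 8.79 CPM in the BPA pool, against 8.11 CPM in the control pool, a ratio of 1.08 (0.936 to 1.26). The intervals of Ccna2, Ccne1 and Ccne2 all hold 1, so on 190 to 399 reads per pool no difference beyond counting error was seen for these genes. Ratios from 0.860 to 1.38 lie within at least 1 of these intervals.

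Of the enzymes, Cdk2 was slightly higher in the BPA pool, and Cdk1 and Cdc25c slightly lower. Cdk2 (12566, chromosome 10 from 128697938 to 128705051), the kinase of meiotic prophase, had 79.7 CPM in the BPA pool, from 3618 reads, against 70.7 CPM in the control pool, from 2954 reads, a ratio of 1.13 (1.07 to 1.18). Pmel, which overlaps 0.547% of the exon bases of Cdk2 on the opposite strand, stood at 31.7 CPM in the BPA pool, against 24.6 CPM in the control pool. Cdk1 (12534, chromosome 10 from 69335146 to 69352912), the kinase of the divisions themselves, had 28.3 CPM in the BPA pool, against 30.2 CPM in the control pool, a ratio of 0.937 (0.867 to 1.01). Cdc25c (12532, chromosome 18 from 34732993 to 34751564) had 13.6 CPM in the BPA pool, against 15.8 CPM in the control pool, a ratio of 0.861 (0.771 to 0.963). The strand setting of the counts was not given, and without strand, reads from overlapped exons could not be assigned to 1 partner. Overlapped bases make up 10.1% of the exon bases of Ccna1, 12.5% of Ccna2, 17.4% of Ccne2 and 12.7% of Cdc25c. The antisense partner of Ccna1, 4931419H13Rik, had 197 reads with BPA and 241 reads in the control, a log2 ratio of -0.40 on the same side of 0 as Ccna1. Exosc9, which overlaps Ccna2, had a log2 ratio of 0.06, Ints8, which overlaps Ccne2, had 0.02, and Gm3550, which overlaps Cdc25c, had 1 read in each pool. Gm3550 was listed at 0 in both pools, and its reads were derived as for Ccnb3. The part of these partners in the values of the members was not tested.

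No member was called higher or lower. A gene was called when it reached 1 CPM in the higher library and a 2-fold ratio with a pseudocount of 0.1 CPM added. Of the 10 members 9 reached that level, all but Ccnb3, and 0 were higher and 0 lower, while 1.32% of 19389 genes were called higher and 1.95% lower. The log2 ratios of the 9 ran between -0.21 for Cdc25c and 0.17 for Cdk2 and Ccne1, with 5 below 0 and 4 above. Their median was -0.06, against 0.00 over all genes at that level. The authors' deposited table calls none of the 10 and gives each a q-value of 0.99996. That call was given to only 28 of all 44002 rows, so its absence says little about these 10 genes. The 9 genes were above 1 CPM in each pool, the lowest value being the 4.55 CPM of Ccne1 in the control pool.

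The small differences lay within the range of most genes of like abundance. The counting interval of the ratio excluded 1 for 4 of the 9 members, Ccna1, Ccnb2 and Cdc25c on the lower side and Cdk2 on the higher side, and did so for 43.1% of all genes at 1 CPM or more, 21.8% higher and 21.3% lower. By mean CPM this share was 38.6% of genes from 4 to 10 CPM, 43% from 10 to 40, 48.8% from 40 to 100 and 59.5% from 100 to 400, so the members' count is near the background. All 9 log2 ratios lay within the middle 95% of genes in the same range of mean CPM, and 5 lay within the middle 50%. Ccna1, Ccnb2 and Cdc25c lay below the middle 50% and Cdk2 above it. For genes with a mean of 100 to 400 CPM, the range of Ccna1 and Ccnb2, the middle 95% ran from -0.20 to 0.20, and from 4 to 10 CPM, the range of Ccna2, Ccne1 and Ccne2, it ran from -0.66 to 0.65. From 40 to 100 CPM, the range of Ccnb1 and Cdk2, it ran from -0.25 to 0.25. From 10 to 40 CPM, the range of Cdk1 and Cdc25c, it ran from -0.44 to 0.43.

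**Figure D2:**
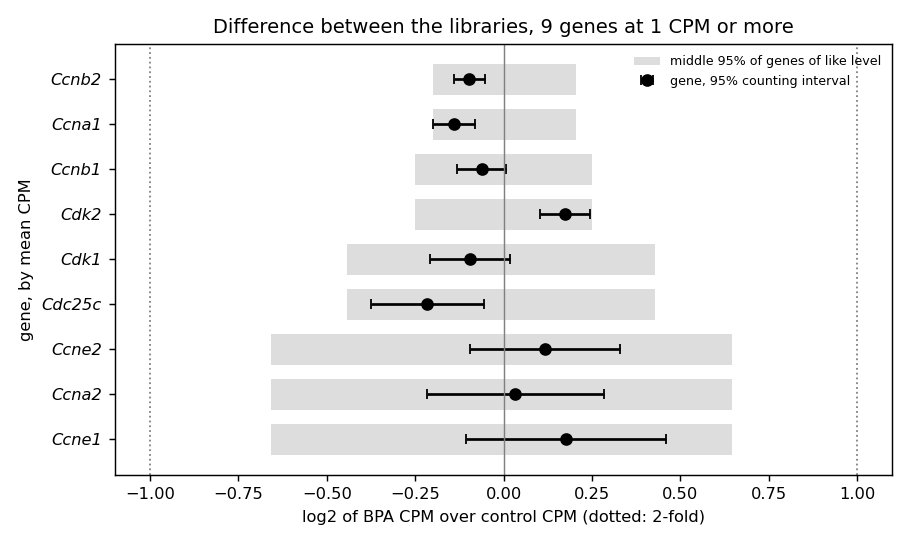
Log2 of BPA CPM over control CPM for the 9 members at 1 CPM or more (points, with 95% counting intervals), ordered by mean CPM, over grey bars for the middle 95% of genes in the same range of mean CPM, whose ratios carry a pseudocount of 0.1 CPM. Each point lies within its bar and far inside the dotted 2-fold lines, and the intervals of Ccnb2, Ccna1, Cdk2 and Cdc25c do not reach 0.

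**Figure D3:**
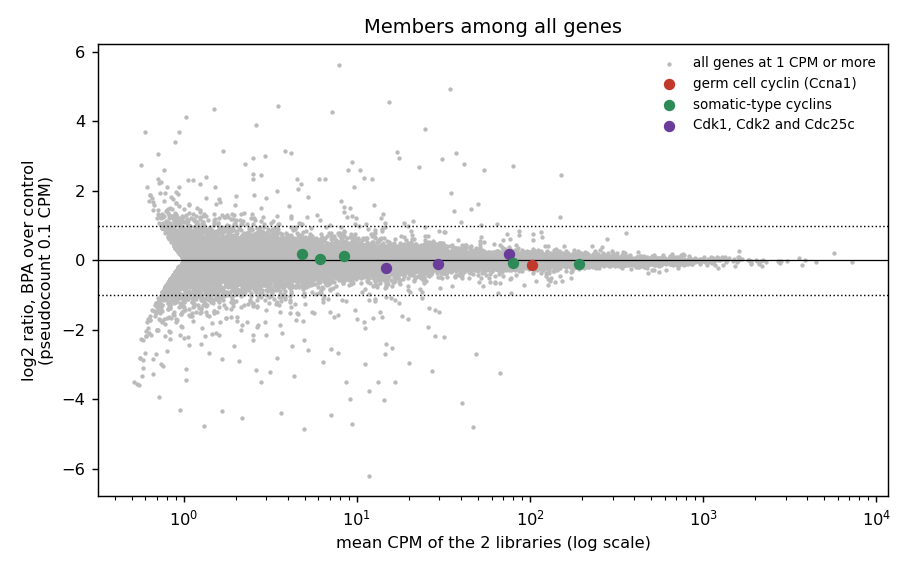
Log2 ratio of BPA over control against the mean CPM of the libraries (log axis) for all 19389 genes at 1 CPM or more in either library (grey), with the 9 members in colour and 2-fold marked by dotted lines. The members lie within the cloud, between -0.21 and 0.17.

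Germ cell cyclins were then set against their somatic-type relatives within each pool, which no scaling of the libraries can change. There were 15.9 Ccna1 reads per Ccna2 read in the BPA pool, against 17.9 in the control pool. Per kb of merged exons this is a level 35.3 times that of Ccna2 in the BPA pool, against 39.8 times in the control pool. These multiples depend on the length used. Per kb of the longest transcript, Ccna1 had 57.1 CPM and Ccna2 2.09 CPM with BPA, against 63.0 CPM and 2.04 CPM in the control. The BPA quotient of reads divided by the control quotient was 0.887, with an exact conditional 95% interval of 0.741 to 1.06 that holds 1. Ccnb3 gave 0.00112 reads per Ccnb1 read in the BPA pool, against 0.00117 in the control pool, a quotient of 0.962 with an interval of 0.179 to 5.17. Over all 7 cyclins there were 0.346 germ cell cyclin reads per somatic-type read in the BPA pool, against 0.362 in the control pool, a quotient of 0.955 (0.910 to 1.002). Nearly all of the germ cell reads in that sum are Ccna1.

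Ratios between the enzymes and their partners were added after the values were seen. Cdk1 had 0.355 reads per Cdk2 read in the BPA pool, against 0.428 in the control pool, a quotient of 0.831 (0.757 to 0.911). For Ccna1 against Cdk2, a kinase that cyclin A1 binds, the values were 1.23 reads in the BPA pool, against 1.53 reads in the control pool, a quotient of 0.804 (0.754 to 0.857). The other four added pairs were closer to 1: Ccnb1 per Cdk1 gave 1.02 (0.932 to 1.12), Ccnb1 per Ccnb2 1.02 (0.968 to 1.08), Ccne1 per Ccne2 1.04 (0.814 to 1.33) and Cdc25c per Cdk1 0.919 (0.802 to 1.05). These intervals cover counting error only, and Cdk2 and Ccna1 were picked here with their values known.

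Among 83 related genes in 7 lists, 82 reached 1 CPM, 1 was higher in the BPA pool, 0 were lower and 81 lay within 2-fold. This is a share of 1.22% called, against 3.28% of all genes at 1 CPM or more. Most of the 3.28% comes from genes at low levels: a floor of 4 CPM left 80 of 256 higher and 103 of 379 lower calls. Most of the listed genes lie above 4 CPM, so the lower share does not set them apart. The 1 gene called was Skp2, the F-box protein that marks the CDK inhibitor p27 for destruction, with 11.02 CPM from 500 reads in the BPA pool, against 2.11 CPM from 88 reads in the control pool, 5.23-fold higher (4.17 to 6.64). The authors' deposited table gives Skp2 a log2 fold change of 2.39, a p-value of 0.0101 and a q-value of 0.99996, and does not call it. No annotated exon of Skp2 overlaps an exon of another gene, and none of its 50-base words occur in annotated transcripts of other loci. The rest of the genome was not searched, and the part of shared sequence in the Skp2 value was not tested. Cdkn1b, which encodes p27, had 13.9 CPM in the BPA pool, against 10.6 CPM in the control pool, a log2 ratio of 0.39 that lay within 2-fold.

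In the other degradation genes the libraries were close: the log2 ratio was -0.15 for Fzr1 and -0.13 for Cdc20, the activators of the anaphase promoting complex, and -0.06 for Fbxw7, which marks cyclin E for destruction, and 7 of 8 lay within 2-fold. All 10 CDK partners and inhibitors lay within 2-fold with a median of 0.12, 7 above 0, led by Cdkn2a (0.50), Cdkn1b (0.39), Cdkn1c (0.20) and Cks1b (0.17). Of 12 kinases and phosphatases of the CDK1 switch, 11 were at 1 CPM or more with a median of -0.10, among them the inhibitory kinase Wee1 (-0.24), the phosphatase inhibitor Arpp19 (0.23), the Plk1 activator Bora (-0.21) and Cdc25a (-0.17). The other 19 cyclins had 14 members below 0 and a median of -0.15, against 49.1% of all genes below 0. Their largest ratios were those of Ccno (0.46), Ccnd1 (-0.31), Ccnl1 (-0.28) and Ccnyl1 (-0.26). The other 17 CDKs had a median of -0.05, with Cdk15 (-0.36), Cdk5 (0.25), Cdk10 (-0.24) and Cdk8 (-0.17) farthest from 0.

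The germ cell factors around entry into division, 8 genes with a median of -0.10, all lay within 2-fold. Tesmin, a spermatocyte gene, had a log2 ratio of -0.23, the crossover factor Ccnb1ip1 -0.19, and the mismatch repair gene Mlh3 0.17. Hspa2, named after its value was seen, is the chaperone that mouse spermatocytes need to assemble CDK1 with cyclin B1, and had 1827 CPM in the BPA pool, against 1976 CPM in the control pool. Genes of proliferating cells, 9 in all, had a median of 0.06, with Mcm3 (0.27), Mcm6 (0.19), Mki67 (-0.17) and Pcna (0.14) farthest from 0.

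**Figure D4:**
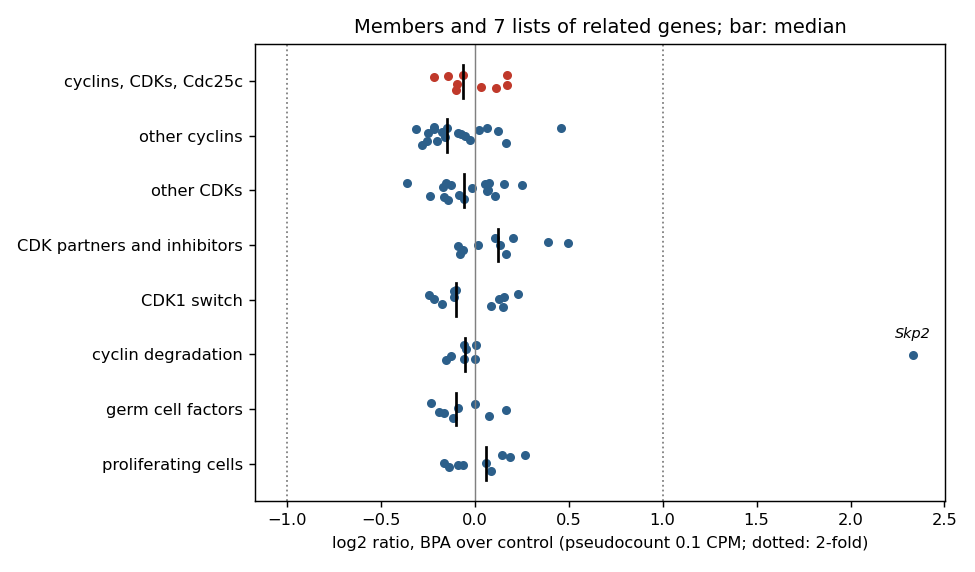
Log2 ratio of BPA over control for the 9 members at 1 CPM or more (top row, red) and for 82 genes of 7 related lists (blue), 1 point per gene, with a black bar at each median and dotted lines at 2-fold. Skp2 at 2.33 is the only point beyond 2-fold, and the medians lie between -0.15 and 0.12.

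Markers of the cells in the tissue give the setting of these values. Genes listed as markers of spermatocytes, the cells that enter the divisions, summed to 1306 CPM in the BPA pool, against 1286 CPM in the control pool over 8 genes, all within 2-fold with a median log2 ratio of 0.02, and testis markers were present. Of the 8, 6 were above 0 and 2 below. Piwil1 alone gave 532 CPM of the BPA sum and 504 CPM of the control sum, so the sums lean on this gene. The 8 spermatogonial markers had a median of 0.13, the 6 round spermatid markers -0.04 and the 6 elongating spermatid markers 0.04, with 0 called. Sertoli markers leaned to the BPA pool (9 of 10 above 0, median 0.35, summed level 1016 CPM with BPA and 885 CPM in the control), with Rhox8 called lower at 1.43 CPM with BPA and 9.04 CPM in the control. Clu alone gave 816 CPM of the BPA sum and 718 CPM of the control sum, so the Sertoli sums rest mostly on Clu, with a log2 ratio of 0.19. Leydig (0.08), peritubular (0.23), macrophage (0.02), endothelial (-0.05) and red cell markers (-0.04) had no call, and the 3 epididymal markers with a row (Crisp1, Adam7 and Rnase10) were listed at 0 in both pools. Adipocyte markers summed to 25.9 CPM in the BPA pool, against 80.9 CPM in the control pool, with 5 of 7 called lower. These were Fabp4 (2.07 CPM with BPA and 24.4 CPM in the control), Car3 (2.40 with BPA and 19.8 in the control), Cfd (0.705 with BPA and 7.94 in the control), Cidec (0.375 with BPA and 5.22 in the control) and Lep (0.485 with BPA and 1.51 in the control). The BPA values of Cfd, Cidec and Lep, under 1 CPM and so listed at 0, were derived from the deposited fold changes. Adipoq, at 15.4 CPM with BPA and 17.2 CPM in the control, and Plin1, at 4.47 CPM with BPA and 4.88 CPM in the control, lay within 2-fold. The part of these shifts in the cyclin values was not tested.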

How the data were processed

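Oligo(dT)-selected RNA was sequenced, per the labels' protocols. HISAT2 2.0.4 and HTSeq 0.6.1 are the tools, and mm10 the build, per the submitters' processing notes. The annotation, strand setting, scaling and test program were not given in the sources used here. Gene by gene, the authors deposited both CPM values (none in 10618 of the rows), their log2 fold change, a call, and a p-value with its q-value. The authors' CPM columns sum to 995266 in the BPA pool, against 997834 in the control pool. These columns are headed as read counts, and CPM is read from their values. All 18571 BPA values and 18796 control values above 0 are whole multiples of 0.0220 CPM (BPA) and 0.0239 CPM (control) within 0.01 read, taken as 1 read. Values under 1 CPM are written as 0; 1404 were filled from the deposited fold changes. Where both pools are listed at 0 with equal reads, as for Ccnb3, the number came from the deposited p-value, whose normal deviate rises with the square root of the reads. This returned the right number in all 68 genes with equal reads known up to 200 and was added after seeing the data. The constant was set on known genes that include these 68, all at 1 CPM or more, so numbers as low as that of Ccnb3 were not checked. For genes listed at 0 the derived numbers lay within 0.0078 of whole reads.

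Symbols and positions came from RefSeq (GRCm38, the build mm10 names; 40269 of 41571 numeric IDs matched) and exons and words from GENCODE M21. The BPA pool was assigned by its treatment label and the control pool by its title, since it has no treatment label. Counting intervals are exact 95% (Clopper-Pearson, Poisson or conditional) and cover counting error only. No count model was fitted. Python 3.11.15 and scipy 1.17.1 were used. The calls were tried on simulated reads that vary by counting error only. Such reads cannot show how the calls behave with variation between animals or libraries. The members and lists were chosen with earlier results of these data known. All members are named; from each of the 7 related lists, the text names called genes and up to 4 whose log2 ratios lie farthest from 0, of which 1 is not reported here. Marker lists are given by sums, counts and medians, with the genes called and a few others by name. Alternatives changed the scaling, floor, pseudocount, fold, length and members.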

Additional observations from a re-analysis of the deposited data

How the results depend on the processing

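No paired analysis was possible because each group has 1 library, and for the same reason none could be left out. With 0 members called higher and 0 lower, no scaling, floor, pseudocount or fold changed these counts, 1.5-fold included. The counts over all genes, 256 higher and 379 lower, became 82 and 123 with a pseudocount of 1 CPM, 80 and 103 with a floor of 4 CPM, 828 and 1042 at 1.5-fold, 55 and 85 at 4-fold, and 100 and 162 when the bound of the counting interval nearer to 1 had to pass 2-fold. Without a floor they were 1900 and 2542, with fold changes of the authors' deposited table for genes listed at 0 in both pools. Taking listed zeros as 0, an alternative chosen after seeing the data, gave 686 and 937. The median log2 ratio of the members ran from -0.08 with no floor to -0.01 with the mean in its place. All 50 values of single members under other scalings, pseudocount or listed zeros stayed within their counting intervals. The quotient of germ cell over somatic-type cyclin reads ran from 0.944 with Ccnb2 moved to the germ cell cyclins to 0.970 without Ccna1, where it rests on 4 reads per pool. With Ccnb2 moved the counting interval, 0.899 to 0.992, excludes 1, while the interval of the reported quotient, 0.910 to 1.002, holds it. Leaving out Ccnb1, chosen after seeing the data, gave 0.958. Depth limits Ccnb3 most.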

Other observations

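Of 220 genes within 1 Mb of a member and at 1 CPM or more, counted once for each member, 5 were higher and 1 was lower in the BPA pool, 2.73% against 3.28% of all genes. Erbb3, a receptor tyrosine kinase gene 108 kb from Cdk2, had 19.6 CPM in the BPA pool, against 9.33 CPM in the control pool, 2.10-fold higher (1.87 to 2.38). Smad9, a BMP signal transducer 244 kb from Ccna1, had 3.86 CPM in the BPA pool, against 1.70 CPM in the control pool, 2.27-fold higher (1.71 to 3.04). The others, Nudt6 near Ccna2, Praf2 and Ccdc120 near Ccnb3 and Gm21136 near Ccne1, had 15 to 96 reads per pool. In each of them the lower value was under 1 CPM and was derived from the deposited fold change. None of the 10 neighbours of Skp2 was called. All of these genes were named after their values were seen.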
